A study of Mus musculus with 18 samples.

Results

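The Ifi200 family, also called the PYHIN family, is a group of interferon-inducible genes that lie side by side on mouse chromosome 1. The 7 genes described here were Ifi202b, Ifi203, Ifi204, Ifi205, Mnda, Mndal and Aim2, out of 24421 gene symbols counted. They were chosen by name as a family because Ifi202b had no counts in any cultured library labelled Δ/Δ. That absence, and the genotype difference of the members in culture at each week, are therefore given as a description, and where the number called is printed nothing is read from it. All 7 genes were present in both count tables, 6 had enough counts for a test in culture and 5 in sorted cells.

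RNA was sequenced in 18 libraries of bone marrow (BM) mesenchymal stem cells (MSCs) in 6 groups of 3 libraries, to ask what loss of POT1a, a protein that protects telomeres, does to these cells. For 12 libraries, BM cells of mice aged 4 to 6 months carrying a tdTomato reporter behind a floxed stop were cultured, CD51+/PDGFRα+ cells were sorted and all of them, controls included, were exposed to Cre vesicles (10 µL per well for 12 h). tdTomato+ cells were sorted 48 h later and collected at week 1 or week 4. The mice were Pot1a wild type, whose libraries are called wt/wt, or Pot1a flox/flox, whose libraries are labelled Δ/Δ. The other 6 libraries were of tdTomato+ cells sorted directly from the BM of mice aged 2 weeks that carried NG2-cre and the same kind of reporter. NG2-cre is driven by the promoter of Cspg4 and is active in pericytes of the whole body. The titles of these 6 libraries give Pot1a wt/Δ or Δ/Δ, while their genotype field reads fl/fl for all of them, so the grouping rests on the titles. Labels give the strain as C57BL/6 for every library, and the methods list the floxed Pot1a line as a B6;129 stock. Each group is described as libraries of separate mice, while the labels do not say which libraries of different groups share a mouse, so p-values measure the spread between these libraries.

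Counts per library ranged from 12807832 to 90717232. Pot1a itself, counted over all its exons, was not lower in the cultured libraries labelled Δ/Δ, at 31.1 to 37.9 CPM (the count normalised for library size with TMM factors) against 33.8 to 36.6 CPM in wt/wt at week 1. At week 4 the ranges were 42.8 to 47.9 CPM and 33.2 to 37.8 CPM. In sorted cells Pot1a had 19.1 to 31.0 CPM in the libraries titled Δ/Δ and 26.9 to 34.3 CPM in those titled wt/Δ. By qPCR the paper reports significantly reduced Pot1a mRNA after deletion in culture, and reduced expression in sorted tdTomato+ cells. It also reports a band of the deleted allele in the cultured cells. Which exons are floxed is not given, so a count over all exons need not show their loss, and the measures are unlike. Directions given for genotype therefore follow the labels. Stromal markers (10 genes, Pdgfra and Col1a1 among them) summed to at least 16254 CPM in every library. The sum of 16 macrophage and myeloid markers was higher in Δ/Δ than in wt/wt at both weeks, without overlap, at 18.5 to 21.1 against 11.3 to 13.3 CPM at week 1 and 24.4 to 27.9 against 17.4 to 24.3 CPM at week 4. Of these markers, 9 had no counts in wt/wt and 9 none in Δ/Δ at week 1, and 7 and 5 had none at week 4, with Fcgr1, C1qa, C1qc and Tyrobp at 0 in every cultured library. Fcer1g was called higher in Δ/Δ at both weeks (log2 fold change 2.03 and 3.15, adjusted p = 0.00306 and 1.02e-04, edgeR) and Lyz2 at week 1 (1.68, adjusted p = 0.00247), the 2 of 5 tested markers called higher at week 1, beside 0.752% of all genes. The part of such cells in the levels of the family was not tested. In sorted cells the same list summed to 1281 to 3043 CPM.

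Proteins of this family carry 1 or more HIN domains, which bind DNA, and most also carry a pyrin domain, through which they bind other proteins. AIM2 senses DNA in the cytosol and builds an inflammasome with the adaptor ASC (Pycard) and caspase-1. p204, the product of Ifi204, is known to promote interferon induction by DNA and to take part in differentiation, in osteoblasts among other cells. p202, the product of Ifi202b, has HIN domains and no pyrin domain and can hold AIM2 away from its adaptor. Mouse strains differ in Ifi202b, and C57BL/6J is known to express little or none of it because a stretch of DNA at the start of the gene is deleted. Interferons induce most of the family, through a DNA element called the interferon-stimulated response element (ISRE).

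The members lie within 1 stretch of chromosome 1, from 173350879 to 174031810 (GRCm38, GENCODE M21), and all but Aim2 are on the minus strand. In order along the chromosome, Aim2 spans chr1:173350879-173466040 and Ifi204 spans chr1:173747293-173766943. Mndal spans chr1:173849126-173942491, a gene model that takes in that of Mnda (annotated as Ifi211, chr1:173896345-173913046) and most of Ifi203 (chr1:173920407-173942672). Ifi202b spans chr1:173962568-173982744 and Ifi205 spans chr1:174011998-174031810. The members are close copies of each other to different degrees. None of the 1623 windows of 75 bases in the Ifi202b transcript, and none of the 3477 of Aim2, occurred in a transcript of another gene. Such shared windows made up 5.71% for Ifi203, 11.1% for Mndal, 13.2% for Ifi204, 16.6% for Ifi205 and 63.6% for Mnda. Reads of Mnda, Ifi205, Ifi204 and Mndal can thus be split between them, and the library kit keeps no strand. Those of Ifi203 can be split with Mndal, whose model takes in most of it, and with Ifi203-ps. Single values of all these genes are therefore less certain than those of Ifi202b and Aim2.

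The promoter windows of RefSeq (300 bases around each annotated start, build GRCm38.p6, 8 windows for 6 members) were searched on both strands for the ISRE core GAAANNGAAA. Ifi204 had no window. The ISRE core was present in 5 of the 8 windows, against 3.44% of all 32851 promoter windows. The matches were in windows of Ifi203, Ifi205, Mnda and Mndal, while Ifi202b and Aim2 had none. Ifi205 had a second match, from position 23, and Mndal another in its second window, and these are not shown. A match describes the letters and not a bound site. Whether the motif goes with a member's change over time was not tested. The windows below show the ISRE core in capitals with its flanks. In Ifi203 and Mndal the 30 bases are identical although their starts lie far apart, and Ifi205 and Mnda share a second form of the core.
Ifi203 (minus strand, in chr1:173942443-173942742, motif from position -35 relative to the start): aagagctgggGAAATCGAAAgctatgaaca
Mndal (minus strand, in chr1:173880138-173880437, from position -36): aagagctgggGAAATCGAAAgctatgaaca
Ifi205 (minus strand, in chr1:174031706-174032005, from position -134): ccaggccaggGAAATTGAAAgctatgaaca
Mnda (minus strand, in chr1:173912997-173913296, from position -37): caaagccaggGAAATTGAAAgctatgaacg

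The whole window of Ifi202b, the gene with the all-or-none pattern, is given in lower case, as the reference genome has it. Which mice of these libraries carry this sequence was not tested, so it is not shown to be the start used in the wt/wt cultures. This RefSeq start lies upstream of the GENCODE gene model given above.
Ifi202b, promoter window (minus strand, chr1:173982795-173983094): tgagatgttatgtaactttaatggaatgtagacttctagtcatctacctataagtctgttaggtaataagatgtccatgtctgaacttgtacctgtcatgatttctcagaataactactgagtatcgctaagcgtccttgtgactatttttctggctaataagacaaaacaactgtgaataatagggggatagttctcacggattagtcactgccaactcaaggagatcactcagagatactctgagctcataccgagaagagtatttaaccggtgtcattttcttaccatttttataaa

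Ifi202b was present in every wt/wt culture and absent everywhere else. The 3 wt/wt libraries of week 1 had 26.5, 20.5 and 46.7 CPM (889, 526 and 1221 counts). Those of week 4 had 15.2, 13.0 and 23.4 CPM (204, 289 and 660 counts). All 6 cultured libraries labelled Δ/Δ had 0 counts, which allows at most 0.0444 CPM at week 1 and 0.0213 CPM at week 4 (3 counts over the group, counting error only). Against this floor the wt/wt level was at least 695-fold higher at week 1 and at least 848-fold higher at week 4. No other member was at 0 in 1 genotype at both weeks and above 0 in the other.

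In cells sorted from the marrow, Ifi202b had 0 counts in all 6 libraries, the wt/Δ controls included. The limits were 0.0253 CPM in wt/Δ and 0.0239 CPM in Δ/Δ, at 28918757 to 49992698 counts per library. The wt/Δ cells carry a wild-type allele of Pot1a, so in these files the gene was absent also where the labels give no full deletion. The wt/wt cultures are the only libraries from mice without a floxed or deleted Pot1a allele. Because wt/wt and flox/flox cells came from different mice, the Pot1a genotype and the strain origin of the Ifi200 locus cannot be told apart here.

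Among all 24421 symbols, Ifi202b was the 1 gene with 0 counts in all 6 cultured Δ/Δ libraries and at least 10 in all 6 wt/wt libraries, and 0 genes showed the reverse. Over the 12 cultured libraries its log2 CPM was most like that of Mmadhc (Pearson r 0.971), Pam (0.965), Hmga2-ps1 (0.963), Cav1 (0.956) and Six2 (0.947), a description over libraries that share the genotype split. None of these was absent in Δ/Δ. Pam, an enzyme that amidates peptides and lies elsewhere on chromosome 1 (chr1:97795114-98095646), had 278 to 309 CPM in wt/wt and 60.0 to 76.8 CPM in Δ/Δ at week 1. Its levels at week 4 were 388 to 427 CPM and 69.1 to 86.7 CPM. Six2, a transcription factor of progenitor cells, had 2.14 to 2.80 CPM in wt/wt and 0.111 to 0.242 CPM in Δ/Δ at week 1.

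Genes around the family did not share the switch. Within 5 Mb on either side of the members, 63 genes were tested, of which 1 was higher and 0 were lower in Δ/Δ at week 1 (1.59%, against 1.02% of all genes). The 1 gene was Fcer1g, the shared gamma chain of Fc receptors, with a log2 fold change of 2.03. At week 4, 11 were higher and 4 lower (23.8%, against 15.7% of all genes). The nearest tested gene on the side of Aim2 was Dusp23, 718 kb away, with a log2 fold change of 0.30 ± 0.26 (SE) at week 1.

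**Figure D1:**
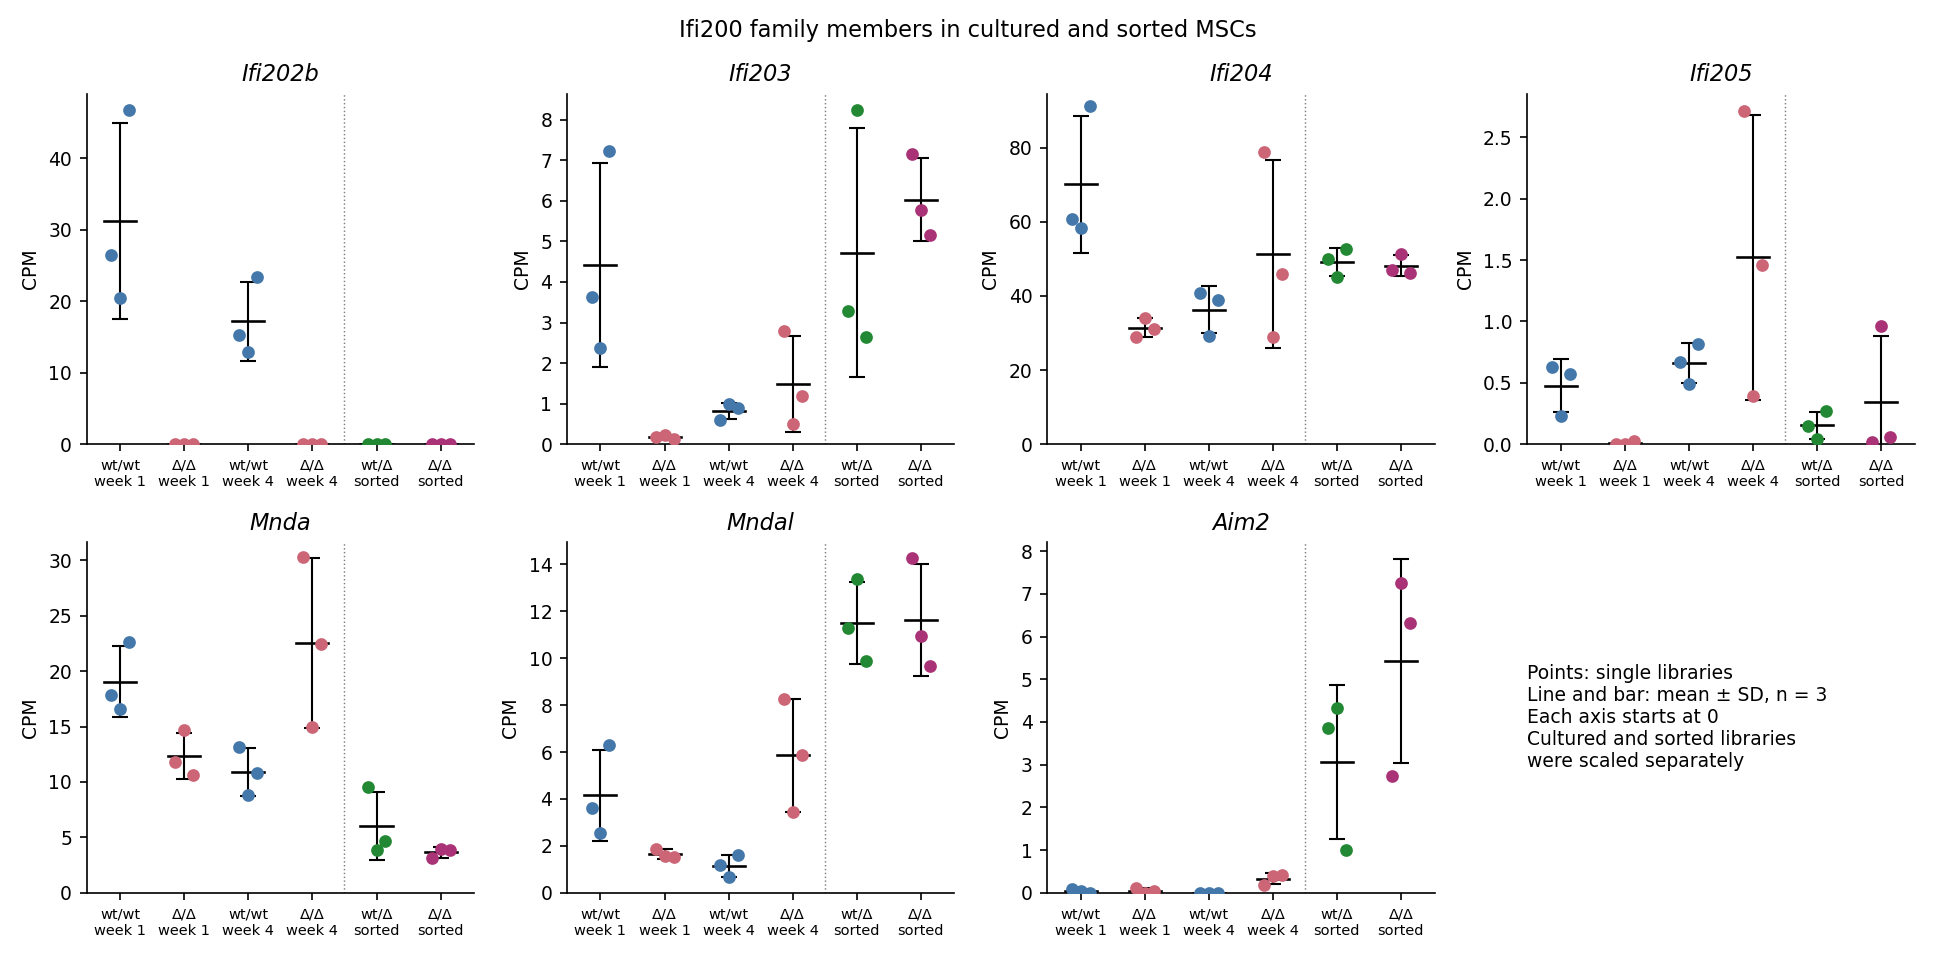
CPM (axes from 0, a separate scale for each gene) of the 7 members in every library, with points for single libraries and lines and bars for the mean ± SD of 3 libraries, cut at 0 where the bar would pass it. Ifi202b stands at 13.0 to 46.7 CPM in the wt/wt cultures and at 0 in the other 12 libraries, and Aim2 at 0 to 0.423 CPM in every cultured library.

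At week 1, 5 of the other 6 members were also lower in each library labelled Δ/Δ than in any wt/wt library, and none of the 5 was at 0 in the whole group. Of all 13169 genes tested, 10.8% were lower without overlap in this way, and nothing is read from the count of members. Ifi203, a family member of little known function, had 3.63, 2.38 and 7.23 CPM in wt/wt and 0.181, 0.221 and 0.122 CPM in Δ/Δ. Ifi204 had 60.6, 58.3 and 91.3 CPM in wt/wt and 29.0, 34.2 and 31.1 CPM in Δ/Δ. The groups did not overlap for either gene, and the third wt/wt library was the highest for both.

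Mnda, named after the human myeloid cell nuclear differentiation antigen, had 17.8, 16.6 and 22.7 CPM in wt/wt and 11.8, 14.6 and 10.6 CPM in Δ/Δ at week 1. Mndal, the MNDA-like gene beside it, had 3.63, 2.54 and 6.32 CPM in wt/wt and 1.88, 1.55 and 1.52 CPM in Δ/Δ. Both were lower in each Δ/Δ library than in any wt/wt library. Ifi205, whose protein is known to control expression of Pycard in mouse macrophages, had 21, 6 and 15 counts in wt/wt and 0, 0 and 1 in Δ/Δ, a pooled ratio of 33.2 (95% counting interval 5.65 to 1343). Aim2 had 3, 1 and 0 counts in wt/wt and 2, 0 and 1 in Δ/Δ, which is too few to compare.

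The log2 fold changes (Δ/Δ over wt/wt, ± SE) at week 1 were -4.71 ± 0.69 for Ifi203, -4.70 ± 1.22 for Ifi205, -1.34 ± 0.40 for Mndal, -1.16 ± 0.30 for Ifi204 and -0.63 ± 0.24 for Mnda. In Δ/Δ, Ifi203 had 3, 4 and 4 counts and Ifi205 had 0, 0 and 1, and both passed the filter only through other groups. The fitted value of Ifi205 depends on the prior count, and the call of Ifi203 rests on these few counts. Of the 5 members tested, 1 (Ifi203) passed the adjusted threshold of 0.05 in edgeR's quasi-likelihood test and was lower, beside 0.266% of all 13169 genes that were called lower. The median over these 5 was -1.34, beside 0.00 over all genes. Nothing is read from this count, since the genotype contrast in culture is the one the family was selected on. It was 0 without Δ/Δ replicate 3 and 4 with DESeq2.

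At week 4 the mean was higher in Δ/Δ than in wt/wt for every member but Ifi202b. Mndal had 1.20, 0.673 and 1.60 CPM in wt/wt and 8.28, 3.46 and 5.88 CPM in Δ/Δ. Mnda had 13.2, 8.84 and 10.8 CPM in wt/wt and 30.3, 14.9 and 22.4 CPM in Δ/Δ. These groups did not overlap, as for 15.5% of all genes in this direction, with the first Δ/Δ library highest and the second lowest.

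Ifi204 had 40.9, 29.1 and 39.0 CPM in wt/wt and 78.9, 29.0 and 46.0 CPM in Δ/Δ at week 4. Ifi203 had 0.598, 0.987 and 0.886 CPM in wt/wt and 2.78, 0.494 and 1.18 CPM in Δ/Δ. For both, the second Δ/Δ library lay below wt/wt libraries, so the groups overlapped. Ifi205 had 9, 11 and 23 counts in wt/wt and 77, 8 and 135 in Δ/Δ, and the groups overlapped in CPM as well. Aim2 had 0 counts in all 3 wt/wt libraries and 5, 8 and 39 in Δ/Δ. Its pooled level in Δ/Δ was at least 7.86-fold higher than the floor of wt/wt (3 counts over the group), yet at 0.176 to 0.423 CPM it was low in every library.

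The log2 fold changes at week 4 were 2.33 ± 0.41 for Mndal, 1.22 ± 0.54 for Ifi205, 1.05 ± 0.24 for Mnda, 0.82 ± 0.56 for Ifi203 and 0.50 ± 0.29 for Ifi204. Of the 5 members tested, 2 (Mnda and Mndal) passed the threshold and were higher, beside 9.2% of all genes called higher. The median was 1.05, beside 0.00 over all genes. Nothing is read from this count either. It was 3 without Δ/Δ replicate 2 and 1 when only the 6 libraries of week 4 were fitted.

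Over time, Mnda and Mndal fell in wt/wt and rose in Δ/Δ. From week 1 to week 4 in wt/wt, 4 of the 6 members tested fell and 0 rose, beside 16.1% of all genes that fell. These were Ifi203 (log2 fold change -2.37 ± 0.54 SE, adjusted p = 0.00472, edgeR), Mndal (-1.83 ± 0.42, adjusted p = 0.00481), Ifi204 (-0.95 ± 0.30, adjusted p = 0.026) and Mnda (-0.81 ± 0.24, adjusted p = 0.0222). For each of the 4, every week 4 library lay below every week 1 library, as for 21.3% of all genes. Ifi205 had 0.45 ± 0.61 (adjusted p = 0.61).

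Ifi202b had a log2 fold change of -0.85 ± 0.33 from week 1 to week 4 in wt/wt, with overlapping groups, and did not pass the test (adjusted p = 0.0811). Libraries with the same replicate number deviated together over time in wt/wt, and with this pairing as a block within wt/wt the value was -0.82 and passed (adjusted p = 0.00908). It also passed without week 1 replicate 2 or week 4 replicate 3 (adjusted p = 0.0448 and 0.0431), with no filter (0.0475) and with DESeq2 (0.0379), over a range of 0.00642 to 0.280 in 13 alternatives. Ifi204 was lost without week 1 replicate 3 or week 4 replicate 2 (adjusted p = 0.112 and 0.0896, range 0.0068 to 0.112 over 14 alternatives). Mnda was lost without week 1 replicate 3, week 4 replicate 2 or week 4 replicate 3 (adjusted p = 0.0859, 0.0826 and 0.0553, range 0.00712 to 0.0859). The count of members that fell was then as low as 2.

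In the libraries labelled Δ/Δ, Mndal rose by 1.85 ± 0.40 (adjusted p = 0.0031, edgeR) and Mnda by 0.87 ± 0.24 (adjusted p = 0.014) on the log2 scale from week 1 to week 4, beside 18.8% of all genes that rose. Ifi203 had 3, 4 and 4 counts at week 1 and passed the filter only through other groups. Its value was 3.15 ± 0.74 (adjusted p = 0.00542, edgeR), and this call is not counted. Ifi205 went from 1 count over the group to 220, a pooled ratio of 105 (counting interval 18.7 to 4183). Its fitted value of 6.37 ± 1.01 depends on the prior count, and the gene passed the filter only through the groups where it was present, so its call is not counted. Ifi204 had 0.71 ± 0.30 and did not pass (adjusted p = 0.0826). Aim2, which was not tested, went from 3 counts to 52, a pooled ratio of 8.31 (2.69 to 41.6).

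Without week 4 replicate 2, the lowest of its group for Ifi203, Ifi204, Ifi205, Mnda and Mndal, Ifi204 rose as well (adjusted p = 0.0101, range 0.0101 to 0.430 over 13 alternatives). Mnda was lost without week 1 replicate 3 or week 4 replicate 1 (adjusted p = 0.0621 and 0.0590, range 0.0023 to 0.0621). The call of Mndal was kept under each alternative that gave a value, and so was that of Ifi203, which is not counted.

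The difference between these time changes (Δ/Δ less wt/wt, which is also the change of the genotype difference between the weeks) was tested as an interaction. It rests on the same cultured libraries in which Ifi202b, the gene the family was chosen for, was seen to be absent. The value was positive and called for Mndal (3.68 ± 0.57, adjusted p = 0.00176, edgeR), Mnda (1.68 ± 0.34, adjusted p = 0.00905) and Ifi204 (1.66 ± 0.42, adjusted p = 0.0308), the 3 members with at least 10 counts in every cultured library, beside 4.08% of all genes. Ifi203 had 5.52 ± 0.91 (adjusted p = 0.00239), with its 3, 4 and 4 counts in Δ/Δ at week 1. Ifi205, with 1 count over that group, had a fitted value of 5.92 ± 1.32 (adjusted p = 0.0159) that depends on the prior count. Ifi202b, at 0 in Δ/Δ at both weeks, and Aim2, which did not pass the filter on low counts, have no such value.

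The interactions of Mnda and Mndal were kept under each alternative. With 3, 4 and 4 counts in Δ/Δ at week 1, Ifi203 passed the filter only through other groups. Its interaction was kept under each alternative that gave a value. That of Ifi204 was lost without week 1 wt/wt replicate 3 (adjusted p = 0.0854), without week 1 Δ/Δ replicate 1, 2 or 3 (0.0756, 0.0593 and 0.0780) and without week 4 wt/wt replicate 2 or 3 (0.0734 and 0.0555), over a range of 0.00203 to 0.0854 in 18 alternatives. That of Ifi205 was lost without week 1 Δ/Δ replicate 3, the library with its 1 count (adjusted p = 0.0657, range 9.55e-04 to 0.0657). Without this library 3 of 5 members were called.

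**Figure D2:**
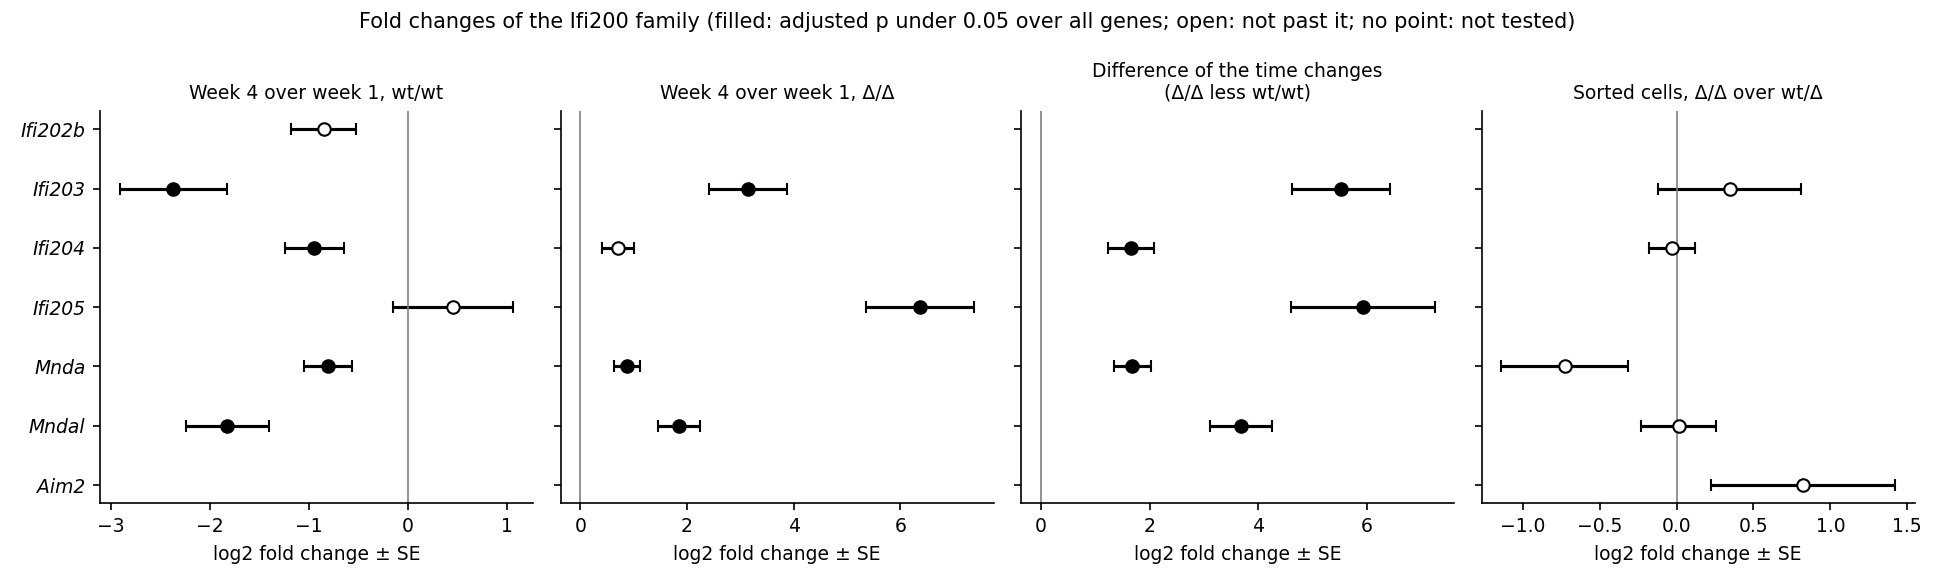
log2 fold changes ± SE of the members (rows) for the time changes in wt/wt and Δ/Δ cultures, their difference and the comparison of sorted cells, each panel with its own horizontal scale. Filled points passed an adjusted p of 0.05 over all genes; in the third panel all 5 points are filled and lie between 1.66 and 5.92, the highest being Ifi205 with 1 count in Δ/Δ at week 1, and in the fourth panel none is filled.

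Per kb of exon, Ifi204 (19.7 ± 5.17 CPM per kb, SD, n = 3) and Ifi202b (18.4 ± 8.10 CPM per kb) were the most abundant members in wt/wt at week 1, and their ranges of mean ± SD overlapped. Mnda followed at 10.7 ± 1.79 CPM per kb, then Mndal at 1.15 ± 0.54, Ifi203 at 0.658 ± 0.38, Ifi205 at 0.114 ± 0.05 and Aim2 at 0.0122 ± 0.013 CPM per kb. In Δ/Δ at week 4 the order began with Ifi204 at 14.4 ± 7.12 and Mnda at 12.6 ± 4.31 CPM per kb, with overlapping ranges of mean ± SD, and Mndal had 1.62 ± 0.66 CPM per kb.

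As a share of the counts of the 7 members, Ifi202b made up 20.4 to 26.7% in wt/wt at week 1 and 21.3 to 30.6% at week 4. With Ifi202b left out, Ifi204 made up 70.1 to 72.8% of the other 6 in wt/wt and 67.5 to 71.6% in Δ/Δ at week 1, which overlapped. Mnda made up 17.7 to 20.7% of the 6 in wt/wt and 24.5 to 29.0% in Δ/Δ at week 1. The 6 members other than Ifi202b summed to 80.1 to 128 CPM in wt/wt and 43.0 to 50.6 CPM in Δ/Δ at week 1. At week 4 they summed to 40.1 to 56.5 CPM in wt/wt and 48.7 to 123 CPM in Δ/Δ, so the groups were apart at week 1 and overlapped at week 4. Over the 12 cultured libraries, log2 CPM of Mnda and Mndal had a Pearson r of 0.94, that of Ifi203 and Ifi204 0.88 and that of Ifi202b and Mndal -0.19. These are descriptions of libraries that share groups, and part of the reads of the first pair can be shared.

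**Figure D3:**
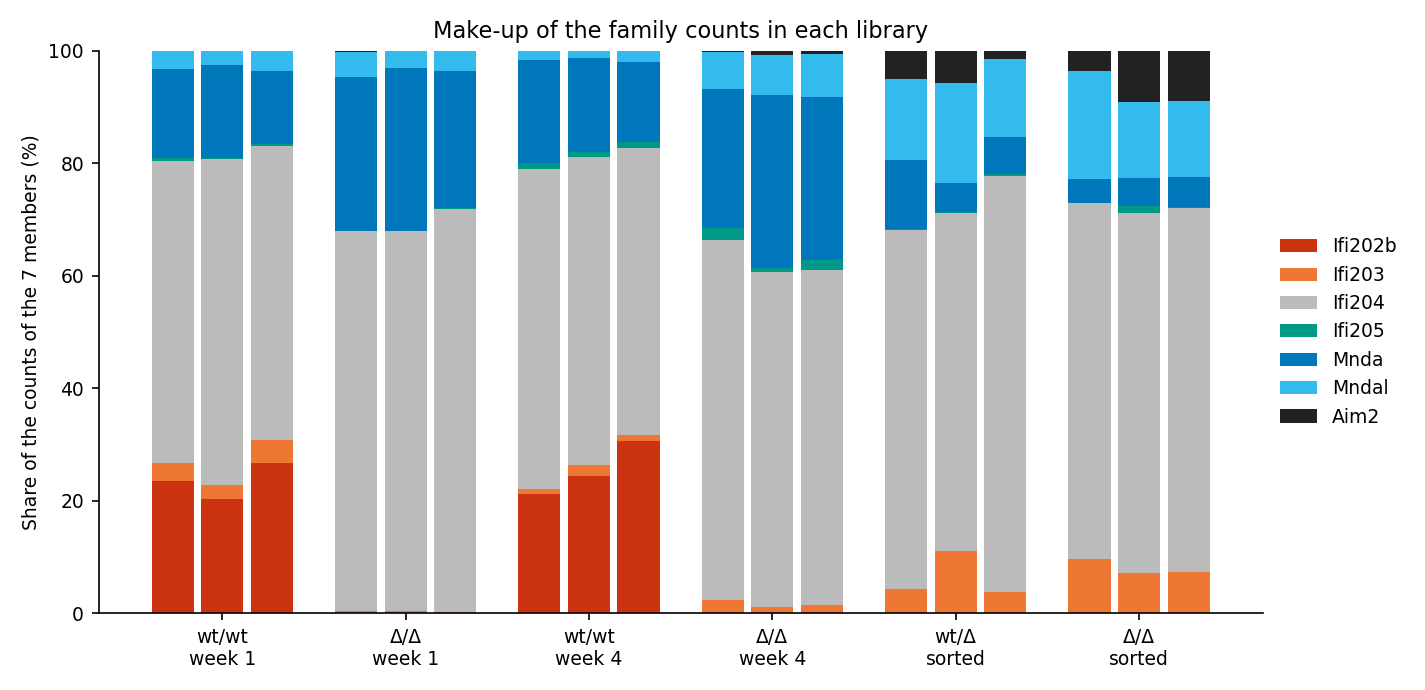
Share (in percent, from 0 to 100) of the counts of the 7 members taken by each member, with 1 bar for each library in its group. Ifi202b takes 20.4 to 30.6% in the wt/wt cultures and 0 elsewhere, Mnda 24.5 to 30.6% in the Δ/Δ cultures, and Aim2 1.41 to 9.04% in sorted cells.

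Genes that interferon induces outside the family were read from a list of 30, of which 29 were tested in culture. At week 1 its median difference on the log2 scale was -2.00 (Δ/Δ over wt/wt), with 1 gene lower, Bst2 (tetherin, which holds viruses at the cell surface, -2.59 ± 0.54), and 0 higher. Of all genes, 0.266% were lower and 0.752% higher at week 1. At week 4, 23 of 29 were higher and 0 lower, with a median of 2.09, beside 9.2% and 6.46% of all genes. From week 1 to week 4, 14 fell and 0 rose in wt/wt (median -1.28), and 27 rose and 0 fell in Δ/Δ (median 2.93). Of all genes, 16.1% fell and 17.9% rose in wt/wt, and 18.8% rose and 16.3% fell in Δ/Δ. The interaction was called for 25 of 29, all of them positive, with a median of 4.29, beside 4.08% of all genes with a positive call. The medians over all genes tested lay between -0.01 and 0.01 in these comparisons.

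Usp18, a brake on type I interferon receptors, had 8.46 to 71.8 CPM in wt/wt and 0.726 to 1.66 CPM in Δ/Δ at week 1. At week 4 it had 0.628 to 2.32 CPM in wt/wt and 4.54 to 103 CPM in Δ/Δ, and its interaction was 9.77 ± 1.54 (adjusted p = 0.00186). Ifit1, which binds foreign RNA, had an interaction of 7.98 ± 1.26, and Oasl2, of the oligoadenylate synthetase family, had 7.45 ± 1.19 (adjusted p = 0.00187 and 0.00198).

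In 2 of the 4 cultured groups the libraries high for most of the family were also high for the interferon-induced genes. The 30 genes summed to 936, 702 and 1817 CPM in the wt/wt libraries of week 1, in which replicate 3 was the highest for Ifi202b, Ifi203, Ifi204, Mnda and Mndal. They summed to 573, 604 and 607 CPM in Δ/Δ at week 1 and to 742, 686 and 677 CPM in wt/wt at week 4. In Δ/Δ at week 4 they summed to 2493, 843 and 1712 CPM, the same order of libraries as for Ifi203, Ifi204, Ifi205, Mnda and Mndal. Aim2 had 0.176, 0.395 and 0.423 CPM there and was lowest in the library with the highest sum. In Δ/Δ at week 1 and wt/wt at week 4, where the sums were close together, the order was not shared, and Ifi203 was lowest in the library with the highest sum. Ifi204 and Mnda were instead highest in that library in wt/wt at week 4, at 40.9 and 13.2 CPM. The part of this shared level in the changes of the family was not tested.

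**Figure D4:**
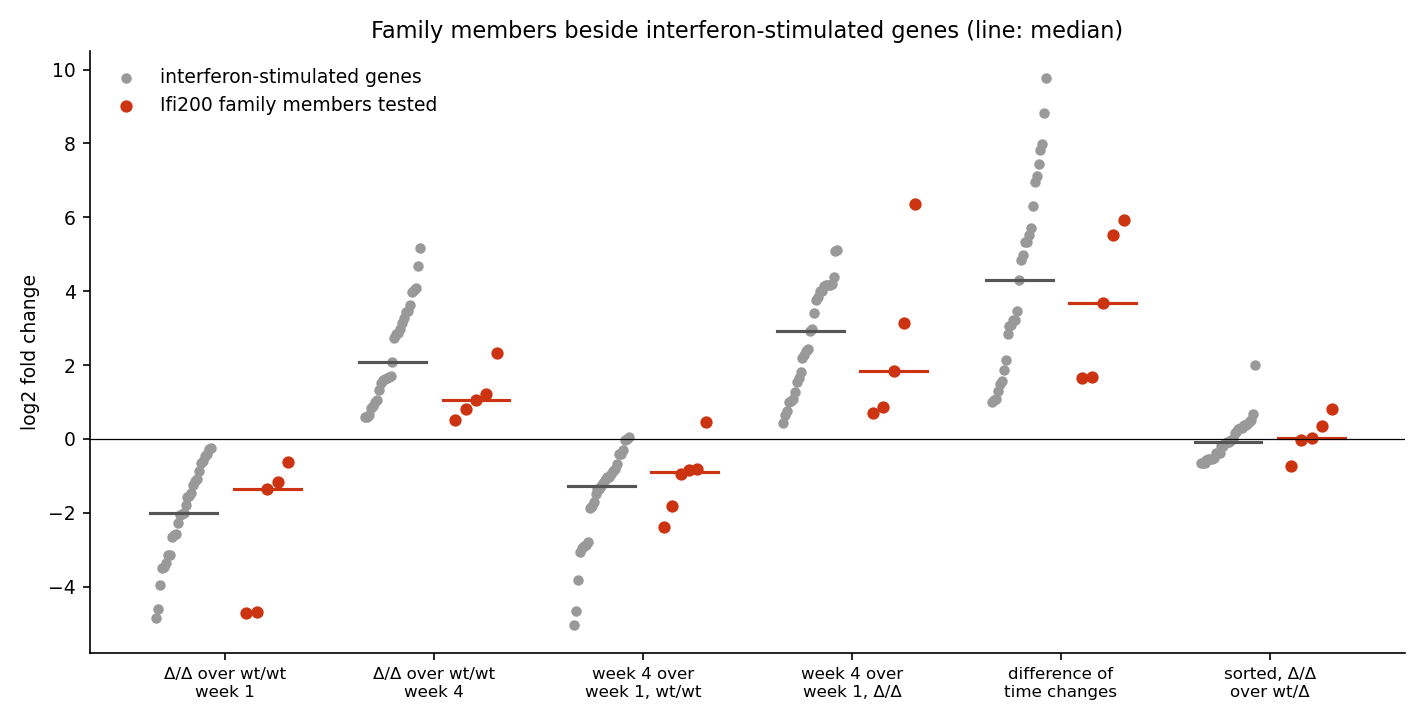
log2 fold changes of 29 interferon-induced genes (30 in sorted cells, grey) and of the Ifi200 family members tested (red) in each comparison, with a line at each median. Both medians are below 0 at week 1 (-2.00 and -1.34), above 0 at week 4 (2.09 and 1.05) and near 0 in sorted cells (-0.08 and 0.01).

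Of 18 tested genes of the interferon signal chain, 7 were higher and 1 lower in Δ/Δ at week 4, and 3 had a positive and 1 a negative interaction. Of all genes, 9.2% were higher and 6.46% lower at week 4, and 4.08% had a positive and 3.08% a negative interaction. Irf7, the factor that amplifies interferon transcription, had an interaction of 4.65 ± 1.01 (adjusted p = 0.013). Irf5, another interferon regulatory factor, had 1.68 ± 0.29 (adjusted p = 0.00333), and Jak2, a kinase of interferon gamma and other receptors, had -1.06 ± 0.18 (adjusted p = 0.00266). In wt/wt 6 of the 18 rose and 1 fell over time, beside 17.9% and 16.1% of all genes. In Δ/Δ 11 rose and 2 fell, beside 18.8% and 16.3%.

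Of 18 tested genes of cytosolic DNA sensing and the inflammasome, 6 were higher and 0 lower in Δ/Δ at week 4, beside 9.2% and 6.46% of all genes. Over time 2 rose and 4 fell in wt/wt, beside 17.9% and 16.1% of all genes. In Δ/Δ 6 rose and 2 fell, beside 18.8% and 16.3%. The interaction was positive and called for 4 and negative for 0, beside 4.08% and 3.08%. Zbp1, a sensor of Z-form nucleic acids that also stands in the list of interferon-induced genes, had 5.71 ± 1.13 (adjusted p = 0.00753), and Samhd1, which breaks down deoxynucleotides, had 1.29 ± 0.21 (adjusted p = 0.00236). The partners of AIM2 were present in culture although Aim2 was near 0. Casp1 had 20.5 to 66.6 CPM over the 12 cultured libraries. Pycard had 1.10 to 2.06 CPM in wt/wt and 2.82 to 3.84 CPM in Δ/Δ at week 4, a log2 fold change of 1.17 ± 0.25 (adjusted p = 0.00635). At week 1 Pycard was also higher in Δ/Δ without overlap, at 2.77 to 3.98 CPM against 1.49 to 1.97 CPM in wt/wt. That difference was not called (0.98 ± 0.25, adjusted p = 0.0836, edgeR).

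Of the 5 other genes of the PYHIN family in the cluster, AI607873 (Ifi207) was tested in culture. It had 0.741 to 1.11 CPM in wt/wt and 0.0605 to 0.276 CPM in Δ/Δ at week 1, then 1.27 to 1.35 CPM and 0.445 to 2.61 CPM at week 4. It rose over time in Δ/Δ (3.69 ± 0.66, adjusted p = 9.99e-04) and its interaction was 3.26 ± 0.85 (adjusted p = 0.0361). Pyhin1, Pydc3, Pydc4 and BC094916 had at most 10 counts over any cultured group.

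In cells sorted from the marrow, 5 members were tested and 0 were called, beside 0% of all 14605 genes in edgeR, where 1792 genes (12.3%) had an unadjusted p under 0.05. DESeq2 called 415 genes in these libraries and no member. Ifi204 had 49.9, 45.2 and 52.7 CPM in wt/Δ and 47.0, 51.4 and 46.1 CPM in Δ/Δ. The log2 fold change was -0.03 ± 0.15 (adjusted p = 0.96), with a 95% interval of -0.32 to 0.26. Mndal had 11.3, 13.4 and 9.89 CPM in wt/Δ and 14.3, 10.9 and 9.66 CPM in Δ/Δ, with an interval of -0.47 to 0.49.

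The other members varied more between the sorted libraries. Ifi203 had 3.30, 8.24 and 2.64 CPM in wt/Δ and 7.15, 5.77 and 5.16 CPM in Δ/Δ (log2 fold change 0.35 ± 0.46, interval -0.56 to 1.26). Mnda had 9.54, 3.84 and 4.68 CPM in wt/Δ and 3.10, 3.95 and 3.85 CPM in Δ/Δ (-0.73 ± 0.41, interval -1.53 to 0.08). Aim2 had 153, 212 and 30 counts in wt/Δ and 125, 323 and 223 in Δ/Δ, or 1.00 to 4.33 CPM and 2.73 to 7.26 CPM (0.82 ± 0.60, interval -0.35 to 2.00). Ifi205 had 6, 2 and 8 counts in wt/Δ and 1, 43 and 2 in Δ/Δ, nearly all of the latter in 1 library. The groups overlapped for every member, while 20.5% of all genes did not overlap in either direction. Of the 30 interferon-induced genes, 0 were called in sorted cells and their median was -0.08.

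Aim2, Pyhin1 and Pydc3 were above 1 CPM in all 6 sorted libraries and below it in all 12 cultured ones. Pyhin1 had 4.76 to 18.5 CPM there and at most 0.0976 CPM in culture, and AI607873 had 6.69 to 30.0 CPM. These libraries also held RNA of blood cells, with 7 neutrophil markers summing to 2193 to 4341 CPM, against 0.651 to 1.79 CPM in culture, and 7 B and T cell markers to 103 to 219 CPM. The part of such cells in the levels of Aim2, Pyhin1 and AI607873 was not tested. In bulk RNA, fewer cells of a type and less RNA per cell cannot be told apart. Cultured and sorted libraries came from mice of different age and were scaled separately, so their levels are set side by side with no fold.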

How the data were processed

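RNA was sequenced in 18 libraries of MSCs, 12 cultured and 6 sorted, and the files hold raw counts per gene symbol. Per the labels, the authors aligned reads to mm10 with HISAT2 2.0.4 and made the deposited counts with featureCounts 1.6.3; the annotation, strand and multi-mapping settings are not given in the sources used here. No column was left without a sample.

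edgeR 4.0.16 (R 4.3.3) was run on the counts: filterByExpr (minimum count 10), TMM scaling, the quasi-likelihood F-test and Benjamini-Hochberg adjustment over all genes tested, called below 0.05. One fit, with 1 coefficient per group, took all 12 cultured libraries, and another the 6 sorted ones. Standard errors came from the F statistic. CPM values are scaled by TMM, and correlations were made on log2 CPM (prior count 2). For groups without counts the floor was 3 counts in the pooled group, and intervals of pooled ratios are exact at 95%. Both cover counting error only. Replicates differed by more than counting error (chi-squared per degree of freedom 10.8 to 376 over 18 pairs), so none was merged.

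The members and gene lists were chosen with earlier results of these data known. Members were named in every comparison. Of each list, up to 4 called genes with the smallest p were eligible to be named, or 2 where none was called, and the text uses part of these. The levels of Casp1 and Pycard given beside Aim2 were chosen after their values were seen. Results on some eligible items are not reported here. Genes alike to Ifi202b are the 5 with the highest correlation, and the window for neighbours was 5 Mb. Positions are from GENCODE M21, in which 23376 symbols matched by name, 651 by synonym and 394 did not match. Mnda matched Ifi211 by synonym.

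Deviations from the group means of same-numbered libraries correlated at 0.152, 0.220 and 0.209 between the weeks in wt/wt, each over 0.1, so the numbers were taken to pair the wt/wt libraries over time. They did not in the other comparisons (lowest values -0.238 in Δ/Δ over time, -0.0794 and -0.0835 between genotypes at week 1 and week 4, 0.0249 in sorted cells). Alternatives were RLE scaling, library size only, no filter, DESeq2 1.42.0, a minimum of 10 counts in every library, a replicate block, only the 6 libraries compared and leaving out each library. A replicate block within wt/wt was added after the data were seen.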

Additional observations from a re-analysis of the deposited data

Results flagged for a closer look

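The interaction of genotype and week passed the test for 5 members (edgeR, adjusted over 13169 genes, 3 libraries per group). All 5 values were positive, beside 4.08% of all genes with a positive call. The interaction rests on the cultured libraries in which the family was selected through Ifi202b, so it is no independent support. Ifi203 and Ifi205 had 11 counts and 1 count over Δ/Δ at week 1 and passed the filter only through other groups. The change of the genotype difference from week 1 to week 4, on the log2 scale, was 5.52 for Ifi203 (adjusted p = 0.00239), 1.66 for Ifi204 (adjusted p = 0.0308) and 5.92 for Ifi205 (adjusted p = 0.0159). It was 3.26 for AI607873, a gene of the same cluster (adjusted p = 0.0361). It was 1.68 for Mnda (adjusted p = 0.00905) and 3.68 for Mndal (adjusted p = 0.00176). In the 5 members the mean of Δ/Δ was below that of wt/wt at week 1 and above it at week 4. In the second Δ/Δ library of week 4, Ifi203, Ifi204 and Ifi205 were below the mean of wt/wt, so the turn was not seen in every library.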

How the results depend on the processing

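Of the members' fold changes, 378 of the values under an alternative kept their direction and side of the threshold, 16 lost a call, 14 gained one and 5 reversed. The reversed values were all in sorted cells and close to 0: Ifi204 had 0.044 with library size only and 0.020 without wt/Δ replicate 3 (-0.090 to 0.020 without 1 library), and Mndal had -0.0071 without wt/Δ replicate 1, -0.084 without wt/Δ replicate 3 and -0.16 without Δ/Δ replicate 1 (-0.16 to 0.14 without 1 library). At week 1 the number of members called between genotypes was 1, and it was 2 with no filter, 2 with the replicate block and 2 with only the 6 libraries compared. It was 0 with at least 10 counts in every library, where Ifi203 and Ifi205 were left out, and 4 with DESeq2, and it ranged from 0 to 1 without 1 library. At week 4 it was 2, against 1 with only the 6 libraries compared, and 2 to 3 without 1 library. Over time it was 4 in wt/wt (2 to 5 without 1 library), beside 16.1% of all genes that fell. In Δ/Δ it was 4 (3 to 5 without 1 library, 2 with at least 10 counts in every library), beside 18.8% of all genes that rose. These 4 include Ifi203 and Ifi205, whose calls over time in Δ/Δ are not counted above. For the interaction the number called was 5 (3 to 5 without 1 library), beside 4.08% of all genes with a positive call. It was 3 with at least 10 counts in every library, which tests 3 members and leaves out Ifi203 and Ifi205. In sorted cells it was 0 under every alternative run. Of all genes, 134 were called between genotypes at week 1, against 85 with at least 10 counts in every library, 237 with only the 6 libraries compared, 445 with DESeq2 and 49 to 181 without 1 library. At week 4, 2062 were called, against 1267 with only the 6 libraries compared. In sorted cells 0 were called, against 415 with DESeq2 and 0 to 4 without 1 library. Where no construction of the alternative is named, the cause was not tested. With the replicate block the members called were 5 over time in wt/wt, with Ifi202b added under both forms of the block, 4 over time in Δ/Δ, 5 for the interaction and 2 at week 4. At week 1 the block added Ifi205 (adjusted p = 0.0367), and it changed no other call of a member. Shallow counts limit Ifi205 and Aim2 most, and in culture Aim2 could not be tested.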
